A study of Mus musculus with 12 samples.

Results

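Nos2, Acod1, Slc7a2, Slc7a1, Ass1, Asl, Gch1 and Arg1 encode the enzymes and transporters that make nitric oxide and itaconate and that supply or consume arginine. These 8 genes, of 43432 in the deposited tables, were taken by name for that role, and each was matched through its symbol to a mouse Ensembl identifier. They were followed in BV2 cells, an immortalised line derived from mouse microglia, which is 1 line and not primary microglia.

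The RNA sequencing held 6 groups of 2 libraries, 12 in all. BV2 cells received 10 µM or 30 µM of 6-shogaol plus LPS, 10 µM or 30 µM of 6-gingerol plus LPS, LPS alone, or no treatment. No group received a compound without LPS. LPS is bacterial lipopolysaccharide, used at 100 ng/mL and added 1 h after the compound to cells kept without serum, and the duration of LPS exposure is not given in the sources used here. 6-Shogaol and 6-gingerol are phenols of ginger: 6-shogaol is formed from 6-gingerol by loss of water, which leaves a double bond beside the ketone in place of a hydroxyl group. The labels do not say whether the replicates of a group were separate cultures, so p-values measure only the spread between these libraries, which may be technical.

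Nitric oxide synthase cleaves arginine into nitric oxide and citrulline and needs tetrahydrobiopterin as a cofactor. Arginine enters the cell through cationic amino acid transporters, can be rebuilt from citrulline by argininosuccinate synthase and argininosuccinate lyase, and is drawn off by arginase. Itaconate is made in activated macrophages and microglia from an intermediate of the citric acid cycle, and inducible nitric oxide synthase and the itaconate enzyme are both known as genes that LPS switches on in these cells.

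Totals ran from 16534960 to 21179867 expected counts per library. All 12 microglia or macrophage markers passed the count filter and summed to between 2160 and 2394 CPM (reads of a gene relative to the TMM-adjusted library total) in every group. Within that sum, Csf1r, the receptor for a survival factor of microglia, averaged 319.7 ± 44.4 CPM with 30 µM 6-shogaol plus LPS. It had 491.6 ± 21.3 CPM with LPS alone and 348.9 ± 39.5 CPM in untreated cells. Aif1, Itgam and Cx3cr1 (at most 1.09 CPM) also lay lower than with LPS alone in both libraries. Tyrobp, a signalling adaptor, averaged 322.0 ± 46.7 CPM, against 232.1 ± 23.9 CPM with LPS alone and 293.8 ± 22.8 CPM in untreated cells (SD, n = 2 each). Trem2 had 56.6 ± 1.43, 40.1 ± 5.34 and 62.0 ± 3.09 CPM in the same order. Cd68 and Tmem119 also lay higher than with LPS alone in both libraries. Among the 12 markers P2ry12, a receptor of resting microglia, stayed below 1 CPM in every library and Tmem119 lay between 2.68 and 5.92 CPM. Markers of neurons and lymphocytes were below 1 CPM throughout, and of 6 astrocyte markers only Gja1, a gap junction gene, was above 1 CPM. Gja1 had 10.2 and 8.62 CPM with 30 µM 6-shogaol plus LPS, 16.7 and 15.7 CPM with LPS alone, and 6.06 and 6.05 CPM in untreated cells. The other 5 astrocyte markers were below 1 CPM in all libraries. The 6 endothelial and fibroblast markers summed to between 0.427 and 0.507 CPM with 30 µM 6-shogaol plus LPS, between 2.0 and 2.38 CPM with LPS alone and between 0.308 and 0.512 CPM in untreated cells. The 6 oligodendrocyte markers summed to between 1.1 and 1.58 CPM with 30 µM 6-shogaol plus LPS, between 2.72 and 3.19 CPM with LPS alone and between 1.54 and 2.19 CPM in untreated cells. These levels were higher with LPS and lower again with 30 µM 6-shogaol, the pattern of several changes below, and the part of any marker in them was not tested.

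On the scale of TPM, a share of all transcripts that corrects for gene length, Acod1 was the most abundant of the 8 genes, with a mean of 360.49 TPM over the 12 libraries. Ass1 followed with 113.18 TPM and Asl with 67.68 TPM. Nos2 had 32.47 TPM, Slc7a1 24.64 TPM, Gch1 16.2 TPM and Slc7a2 9.59 TPM. Arg1 was close to absent at 0.08 TPM, so the levels of the set spanned the range between an abundant induced enzyme and a transcript at the detection limit.

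**Figure D1:**
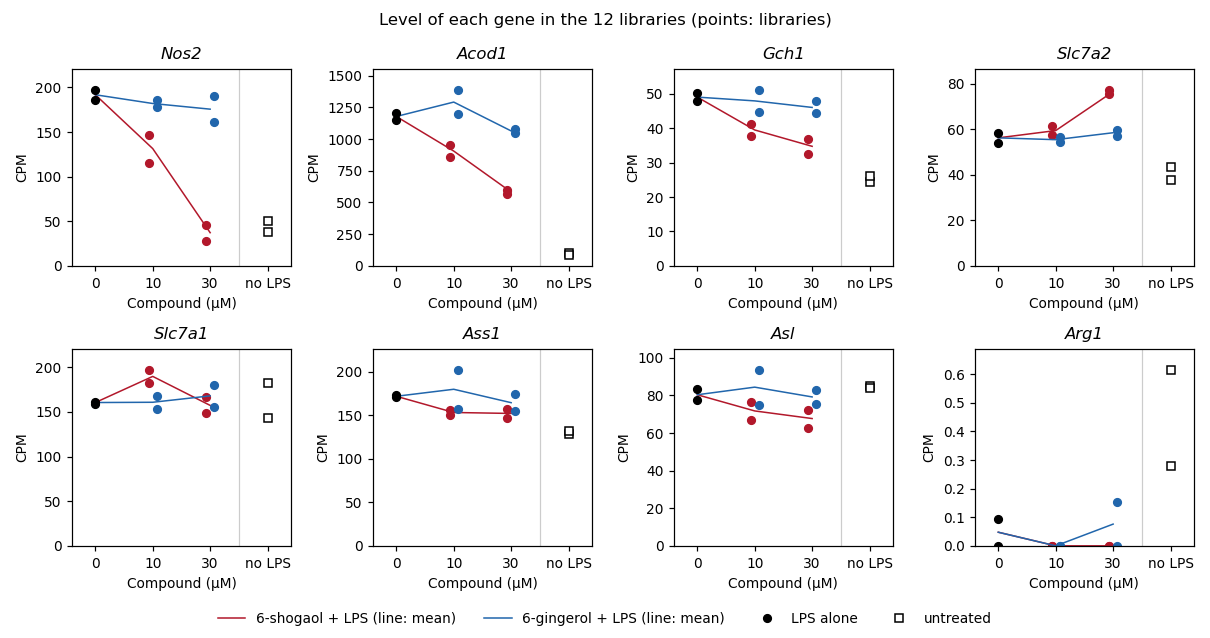
Level of each of the 8 genes in CPM (linear axis from 0) against the concentration of compound given with LPS; points are libraries, lines join the means of 6-shogaol (red) and 6-gingerol (blue), and open squares are untreated cells. The 6-shogaol lines of Nos2, Acod1 and Gch1 descend with dose and that of Slc7a2 climbs at 30 µM, while the 6-gingerol libraries stay near LPS alone.

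The first comparison asked what LPS alone did to these genes. LPS raised the transcripts for the synthase of nitric oxide, for the first step of its cofactor, for itaconate synthesis, for 1 of the arginine importers and for citrulline recycling through Ass1. Of the 7 genes with enough counts to be tested, 5 were higher in LPS-treated cells and 0 were lower, while 11.8% of all 12705 genes tested were called in either direction. A gene was called when its Benjamini-Hochberg adjusted p in the edgeR quasi-likelihood test, taken over all genes tested, was under 0.05. The median log2 fold change was 0.47 for the 7 genes and -0.03 for all genes tested.

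Acod1 encodes cis-aconitate decarboxylase, the enzyme that makes itaconate (ENSMUSG00000022126, chr14:103046977-103056573, plus strand, GRCm38). It had 1203 and 1153 CPM in LPS-treated cells, against 99.6 and 85.9 CPM in untreated cells. Both LPS libraries lay far above both untreated libraries, and the mean was 12.7-fold higher (log2 fold change 3.67, SE 0.13, 95% interval 3.39 to 3.94, edgeR adjusted p = 2.94e-11). This was the widest change among the 7 genes tested in this comparison.

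Nos2 encodes the inducible nitric oxide synthase (ENSMUSG00000020826, chr11:78920787-78960254, plus strand). Its level was 197.4 and 186.1 CPM with LPS, against 37.7 and 50.1 CPM without. The groups did not overlap, and Nos2 rose 4.36-fold (log2 fold change 2.12, SE 0.20, adjusted p = 8.71e-06). Untreated cells thus already held Nos2 transcripts, at 9.27 and 14.24 TPM. In a population of cells, more cells with the transcript and more transcript per cell cannot be told apart.

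Gch1 encodes GTP cyclohydrolase, the first enzyme of tetrahydrobiopterin synthesis (ENSMUSG00000037580, chr14:47153895-47189413, minus strand). LPS-treated cells had 50.3 and 47.8 CPM, against 24.3 and 26.1 CPM in untreated cells. The mean was 1.95-fold higher with no overlap (log2 fold change 0.96, SE 0.11, adjusted p = 2.65e-05). The ratio of Nos2 to Gch1 in TPM was 2.52 and 2.51 with LPS, against 0.999 and 1.23 without, so the synthase increased more than the gene for its cofactor.

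The arginine importers behaved unlike each other. Slc7a2, the inducible importer of macrophages (ENSMUSG00000031596, chr8:40862396-40922308, plus strand), had 54.0 and 58.5 CPM with LPS, against 37.6 and 43.5 CPM without. The log2 fold change was 0.47 (SE 0.10, adjusted p = 0.00608), and without LPS replicate 2 the adjusted p was 0.0935. Slc7a1, the widely expressed importer (ENSMUSG00000041313, chr5:148327410-148399904, minus strand), had 159.3 and 161.5 CPM with LPS, against 143.2 and 182.1 CPM in untreated cells, which lay on either side. Its log2 fold change was -0.02, with a 95% interval of -0.27 to 0.23, so a change of the size seen for Slc7a2 lies outside that interval. In TPM, Slc7a1 exceeded Slc7a2 by a ratio of 2.54 and 2.51 with LPS, against 3.33 and 3.34 in untreated cells. An antisense RNA, Gm26584, overlaps the start of Slc7a2 and had at most 5 counts in a library.

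Ass1, argininosuccinate synthase (ENSMUSG00000076441, chr2:31470207-31520672, plus strand), had 172.9 and 170.4 CPM with LPS, against 128.5 and 131.8 CPM without. The groups did not overlap, the log2 fold change was 0.40 (SE 0.11) and the adjusted p was 0.0312. That call was the least secure of the 5: the adjusted p was 0.0686 without untreated replicate 1, 0.156 without LPS replicate 1 and 0.139 without LPS replicate 2. The expected counts of Ass1 were not whole numbers in any of the 12 libraries, so some of its reads were shared by estimation with other loci. Asl, argininosuccinate lyase and the next enzyme of the recycling path (ENSMUSG00000025533, chr5:130011258-130029247, minus strand), had 83.2 and 77.5 CPM with LPS, against 85.2 and 84.0 CPM without. The groups of Asl did not overlap either, but it was not called (log2 fold change -0.08, 95% interval -0.33 to 0.18, adjusted p = 0.758). With 2 libraries a group, a lack of overlap thus also occurred with small differences.

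Arg1, arginase and the competitor of nitric oxide synthase for arginine (ENSMUSG00000019987, chr10:24915221-24927484, minus strand), did not pass the count filter. It had 0 and 2 expected counts with LPS, against 12 and 6 in untreated cells. Over the 10 LPS-treated libraries with or without a compound Arg1 had 5 counts, against 18 in the 2 untreated libraries, and 8 of the 12 libraries held 0. A count of 0 allows up to 3 counts, which is between 0.142 and 0.181 CPM depending on the library (counting error only). When edgeR was run without the count filter, the adjusted p of LPS against untreated was 0.19. For 6-shogaol plus LPS against untreated it was 0.0297 at 10 µM and 0.0199 at 30 µM, with 0 counts in all 4 of those 6-shogaol libraries. Limma-trend on the authors' normalized signal gave adjusted p of 0.0953 for LPS, 0.0315 for 10 µM and 0.0141 for 30 µM 6-shogaol plus LPS, each against untreated.

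The sequences upstream of 3 genes called after LPS show how different their starts are, and RefSeq's promoter table (GRCm38.p6) held 4 of the 8 genes. Each line gives the 250 bases before the start annotated by RefSeq, 5′ to 3′ on the gene's own strand. Capitals mark matches, on either strand, to kappaB, to the core of the interferon-stimulated response element (ISRE), to GAS (TTCNNNGAA), to AP-1 (TGANTCA), to the antioxidant element core TGACNNNGC or to the TATA box (TATAAA). The regions are chr14:103046762-103047011 (plus strand) for Acod1, chr14:47189414-47189663 (minus strand) for Gch1 and chr2:31470020-31470269 (plus strand) for Ass1. The RefSeq starts of Acod1 and Ass1 lie downstream of the gene starts given above (103046977 and 31470207), which came from another annotation. The last bases of those windows are therefore inside the gene as placed above, whereas the Gch1 window adjoins its gene.
Acod1: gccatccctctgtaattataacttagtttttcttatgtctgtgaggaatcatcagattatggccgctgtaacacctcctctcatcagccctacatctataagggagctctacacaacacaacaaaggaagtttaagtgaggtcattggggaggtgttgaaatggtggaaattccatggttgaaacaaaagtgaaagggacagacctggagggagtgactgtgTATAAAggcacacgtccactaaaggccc
Gch1: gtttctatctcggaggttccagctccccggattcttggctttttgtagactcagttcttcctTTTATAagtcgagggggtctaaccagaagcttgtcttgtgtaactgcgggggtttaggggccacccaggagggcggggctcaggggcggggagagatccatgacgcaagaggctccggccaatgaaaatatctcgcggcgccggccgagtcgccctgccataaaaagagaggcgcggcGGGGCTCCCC
Ass1: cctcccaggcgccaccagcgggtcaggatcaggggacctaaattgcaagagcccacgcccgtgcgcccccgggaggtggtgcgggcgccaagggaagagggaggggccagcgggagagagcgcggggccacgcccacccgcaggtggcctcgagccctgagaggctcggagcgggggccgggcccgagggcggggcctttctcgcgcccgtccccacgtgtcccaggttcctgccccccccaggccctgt

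The Acod1 sequence held a TATA box match 28 to 23 bases before the RefSeq start, on the gene's strand. That match lies inside the gene as placed above. In Gch1 a kappaB match, which reads as a match on both strands, occupied the last 10 bases before the start, and a TATA match on the opposite strand lay 188 to 183 bases before it. The Ass1 window held none of these letters and was 75.6% G or C, compared with 59.2% for Gch1 and 44.4% for Acod1. Of 32851 promoter windows of the same length in the table, 7.3% held the kappaB motif, 12.4% the TATA motif, 3.0% the ISRE core, 7.0% GAS, 6.7% AP-1 and 10.2% the antioxidant element core. A match describes letters and not occupancy. Nos2, Slc7a2, Asl and Arg1 had no entry, and the Slc7a1 windows are not shown because edgeR on all 12 libraries called that gene in no comparison.

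The second comparison asked whether 6-shogaol altered the LPS state. At 30 µM, transcripts of Nos2, Acod1 and Gch1 were lower than with LPS alone, to very different extents, and Slc7a2 was higher. In all 4 of the 7 genes tested were called, 3 lower and 1 higher, in a comparison in which 25.4% of all genes were called. The median log2 fold change of the 7 genes was -0.25, beside 0.00 for all genes tested.

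**Figure D2:**
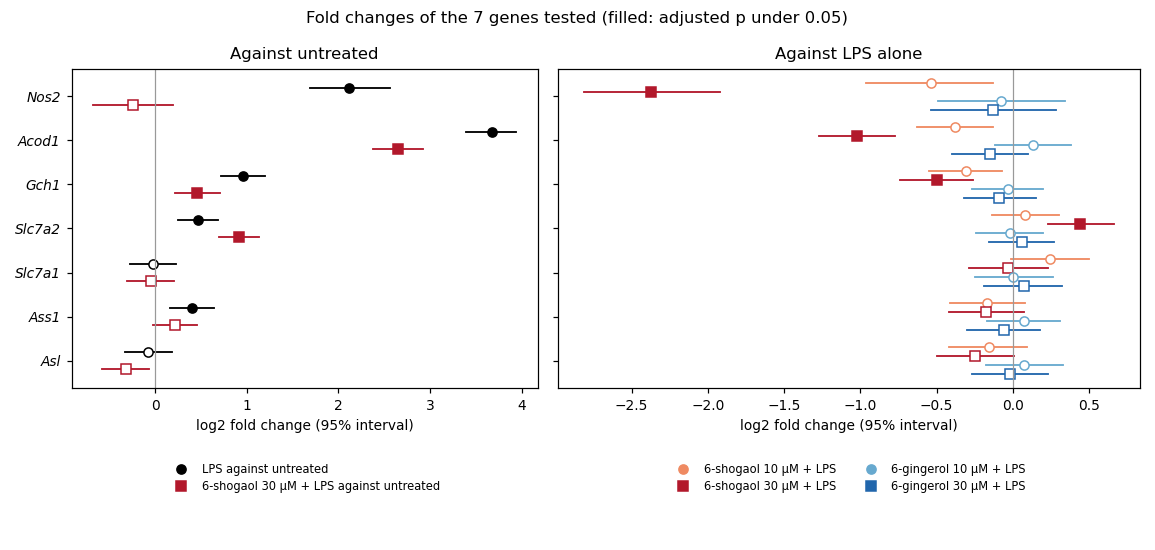
Log2 fold changes with 95% intervals of the 7 genes tested, against untreated cells (left) and against LPS alone (right); filled symbols were called. Nos2 with 30 µM 6-shogaol lies at -2.37 against LPS and at -0.24, not called, against untreated cells, whereas Acod1 lies at -1.02 and at 2.65.

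Nos2 had 46.3 and 28.1 CPM with 30 µM 6-shogaol plus LPS, against 197.4 and 186.1 CPM with LPS alone. The groups were far apart and Nos2 was 5.16-fold lower (log2 fold change -2.37, SE 0.21, 95% interval -2.81 to -1.92, edgeR adjusted p = 3.82e-06). The SD within the 6-shogaol group was 12.9 CPM around a mean of 37.2, the largest spread relative to the mean of any group for this gene.

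Acod1 had 568.5 and 595.7 CPM with 30 µM 6-shogaol plus LPS, against 1203 and 1153 CPM with LPS alone. Its fall was 2.02-fold (log2 fold change -1.02, SE 0.12, 95% interval -1.27 to -0.77, adjusted p = 1.94e-05), with no overlap. That interval does not meet the interval of Nos2. The TPM ratio of Acod1 to Nos2 was 20.3 and 35.1 with 30 µM 6-shogaol, against 10.1 and 10.2 with LPS alone. The groups did not overlap, but the exact permutation test (2-sided) gave p = 0.333, the smallest that 2 libraries against 2 allow.

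Gch1 had 37.0 and 32.5 CPM with 30 µM 6-shogaol plus LPS, against 50.3 and 47.8 CPM with LPS alone. The groups did not overlap and the log2 fold change was -0.50 (SE 0.11, adjusted p = 0.00442). Without replicate 2 of the 30 µM 6-shogaol group the adjusted p was 0.0612.

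Slc7a2 went against the enzymes. It had 75.7 and 77.4 CPM with 30 µM 6-shogaol plus LPS, against 54.0 and 58.5 CPM with LPS alone (log2 fold change 0.44, SE 0.10, adjusted p = 0.00475, and 0.0654 without LPS replicate 1). With Slc7a1 at 166.2 and 148.2 CPM, against 159.3 and 161.5 CPM with LPS alone (log2 fold change -0.03, 95% interval -0.29 to 0.23), the TPM ratio of Slc7a1 to Slc7a2 was 1.93 and 1.76, against 2.54 and 2.51. The 2 recycling enzymes were not called, although the groups did not overlap for either. Ass1 had 157.6 and 146.3 CPM, against 172.9 and 170.4 CPM with LPS alone (log2 fold change -0.18, 95% interval -0.42 to 0.07). Asl had 72.5 and 62.9 CPM, against 83.2 and 77.5 CPM (log2 fold change -0.25, 95% interval -0.50 to 0.01, adjusted p = 0.152).

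At 10 µM of 6-shogaol, edgeR called 0 of the 7 genes against LPS alone, where 0.638% of all genes were called. Nos2, Acod1 and Gch1 had unadjusted p under 0.05. DESeq2 called 1, Acod1 (adjusted p = 0.0373), and limma-trend on the authors' table called 0. EdgeR without the count filter called 1, and edgeR on the libraries of the compared groups alone called 4. Over all genes these 4 alternatives called 120, 37, 311 and 970, in the same order. Nos2 had 115.6 and 147.2 CPM with 10 µM 6-shogaol plus LPS, against 197.4 and 186.1 CPM with LPS alone (log2 fold change -0.54, 95% interval -0.96 to -0.13, adjusted p = 0.335). Acod1 had 857.3 and 953.4 CPM, against 1203 and 1153 CPM (log2 fold change -0.38, 95% interval -0.63 to -0.13, adjusted p = 0.238). Both genes lay below LPS alone in each library without reaching a call. Gch1 had 41.2 and 37.8 CPM, against 50.3 and 47.8 CPM (log2 fold change -0.31, 95% interval -0.55 to -0.07, adjusted p = 0.332). Slc7a2, in contrast, overlapped LPS alone at 57.6 and 61.3 CPM, against 54.0 and 58.5 CPM (log2 fold change 0.08, 95% interval -0.14 to 0.30). Mean fragment lengths were 247.0 and 247.9 bases in the 10 µM 6-shogaol libraries, against 237.0 and 223.0 bases with LPS alone, and with fragment length as a covariate the count of called genes among the 7 was also 0.

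Between the doses, 30 µM against 10 µM of 6-shogaol, 3 of the 7 genes were called, where 19.4% of all genes were. Nos2 was 3.54-fold lower at 30 µM (37.2 ± 12.9 CPM, against 131.4 ± 22.4 CPM at 10 µM, SD, n = 2 each, log2 fold change -1.82, edgeR adjusted p = 6.16e-05). With the libraries of these groups alone fitted, its log2 fold change was -1.83 and the adjusted p 0.072, which ends the call. Acod1 was 1.56-fold lower (582.1 ± 19.2 CPM, against 905.3 ± 67.9 CPM, log2 fold change -0.64, adjusted p = 0.00161). Most of the decline of Nos2 on the log2 scale therefore fell between 10 and 30 µM. For Slc7a2 the difference was 0.36 on the log2 scale (adjusted p = 0.0204), and leaving out any of the 4 libraries ended that call, with adjusted p between 0.0652 and 0.159. Gch1 was not called between the doses (log2 fold change -0.19, 95% interval -0.43 to 0.05).

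The levels with 6-shogaol plus LPS were then set against untreated cells, to see how far they lay from cells without LPS. With 30 µM 6-shogaol plus LPS, 3 of the 7 genes were higher than in untreated cells and 0 lower, where 25.4% of all genes were called. Nos2 was not among them: it had 46.3 and 28.1 CPM, against 37.7 and 50.1 CPM in untreated cells, and the groups overlapped (log2 fold change -0.24, 95% interval -0.68 to 0.20, adjusted p = 0.421). Without replicate 1 of the 30 µM 6-shogaol group, the value was -0.64 and the adjusted p was 0.0315, so this comparison rests on the higher library of that pair.

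Acod1, by contrast, stayed 6.28-fold above untreated cells, at 568.5 and 595.7 CPM, against 99.6 and 85.9 CPM (log2 fold change 2.65, SE 0.12, edgeR adjusted p = 2.22e-09). Gch1 lay in between, with 37.0 and 32.5 CPM, against 24.3 and 26.1 CPM (log2 fold change 0.46, adjusted p = 0.00791, and 0.0805 without replicate 1 of the 30 µM 6-shogaol group). Slc7a2 stood 1.89-fold above untreated cells, at 75.7 and 77.4 CPM, against 37.6 and 43.5 CPM (log2 fold change 0.92, SE 0.10, adjusted p = 1.53e-05). Asl had 72.5 and 62.9 CPM, against 85.2 and 84.0 CPM, and was not called (log2 fold change -0.32, adjusted p = 0.0619). It was called lower under 4 alternatives, with adjusted p of 0.0229 with the replicate number as a block, 0.0367 with library totals, 0.0382 with fragment length as a covariate and 0.0457 without the count filter.

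The log2 difference from untreated cells was also expressed as a share of the change that LPS alone made. With 30 µM 6-shogaol plus LPS it was -11.2% for Nos2, 48.4% for Gch1, 55.9% for Ass1, 72.3% for Acod1 and 194.3% for Slc7a2. Without a group given the compound alone, an altered LPS response and a compound effect apart from LPS cannot be told apart. At 10 µM the shares were 74.4% for Nos2, 67.7% for Gch1, 58.6% for Ass1, 89.6% for Acod1 and 117.0% for Slc7a2. These shares describe the means of 2 libraries each, and the same LPS and untreated libraries enter every share. With 10 µM 6-shogaol plus LPS, 4 of the 7 genes were higher than in untreated cells, where 8.76% of all genes were called: Acod1 (log2 fold change 3.29), Nos2 (1.58), Gch1 (0.65) and Slc7a2 (0.55). Ass1 at 10 µM had a log2 fold change of 0.23 (95% interval -0.01 to 0.48) and was not called. At 30 µM it had 0.22 (95% interval -0.02 to 0.46) and was not called either.

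**Figure D3:**
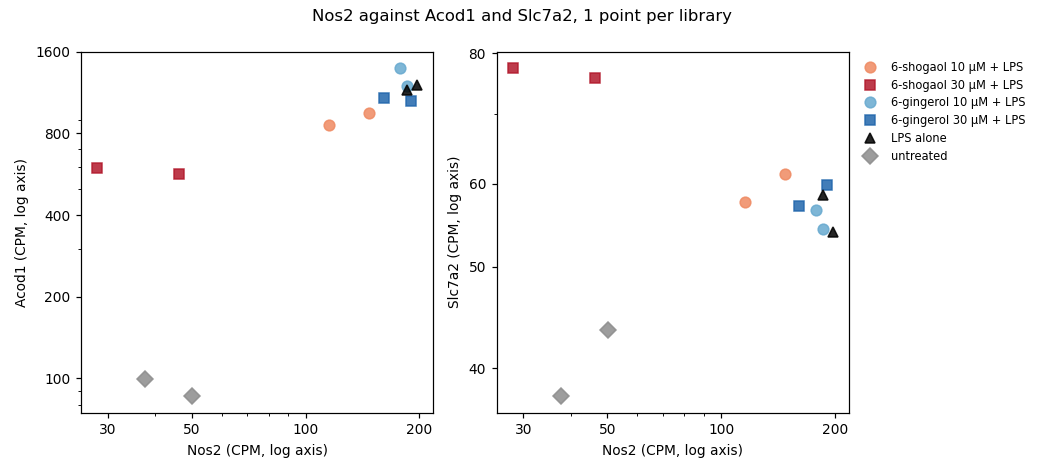
Nos2 against Acod1 (left) and against Slc7a2 (right) in CPM on log axes, 1 point per library. The 30 µM 6-shogaol libraries sit at the Nos2 level of untreated cells (28.1 to 46.3 CPM, against 37.7 to 50.1 CPM) but at 568.5 to 595.7 CPM of Acod1, against 85.9 to 99.6 CPM, and above all other libraries for Slc7a2.

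The third comparison asked the same of 6-gingerol. With 10 µM, 0 of the 7 genes were called against LPS alone, and 0.0% of all genes were. With 30 µM, 0 of the 7 genes were called, and again 0.0% of all genes were. At either dose none of the 7 had an unadjusted p under 0.05, and DESeq2, limma-trend on the authors' table and edgeR without the count filter also called 0. Nos2 had 178.1 and 185.8 CPM with 10 µM 6-gingerol plus LPS, against 197.4 and 186.1 CPM with LPS alone (log2 fold change -0.08, 95% interval -0.49 to 0.34). With 30 µM it had 190.1 and 161.1 CPM, which overlap LPS alone (log2 fold change -0.13, 95% interval -0.54 to 0.28). A decrease of Nos2 as large as that with 30 µM 6-shogaol lies outside both intervals, while a log2 fold change of -0.49 lies inside both.

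Acod1 had 1389 and 1194 CPM with 10 µM 6-gingerol plus LPS, against 1203 and 1153 CPM with LPS alone (log2 fold change 0.13, 95% interval -0.12 to 0.38). With 30 µM it had 1050 and 1078 CPM, both below the LPS libraries (log2 fold change -0.15, 95% interval -0.40 to 0.10, edgeR adjusted p = 1). The intervals of Slc7a2, Slc7a1, Ass1, Asl and Gch1 at both doses lay between -0.32 and 0.33 on the log2 scale. Between the doses of 6-gingerol, 30 µM against 10 µM, 0 of the 7 genes were called, with 0.00787% of all genes called. There Acod1 had the only unadjusted p under 0.05 (log2 fold change -0.28, adjusted p = 0.961), and DESeq2 and limma-trend also called 0 of the members.

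The compounds were compared directly at matched doses, which is the test of whether 6-shogaol and 6-gingerol differed. At 30 µM, 4 of the 7 genes were called, where 25.0% of all genes were. Nos2 had 46.3 and 28.1 CPM with 6-shogaol, against 190.1 and 161.1 CPM with 6-gingerol, and was 4.72-fold lower (log2 fold change -2.24, SE 0.20, edgeR adjusted p = 6.83e-06). Acod1 had 568.5 and 595.7 CPM, against 1050 and 1078 CPM (log2 fold change -0.87, SE 0.12, adjusted p = 8.92e-05). For both enzymes the groups were well apart.

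Gch1 was lower with 30 µM 6-shogaol than with 30 µM 6-gingerol, at 34.8 ± 3.17 CPM, against 46.1 ± 2.46 CPM (SD, n = 2 each, log2 fold change -0.41, edgeR adjusted p = 0.0152). Its adjusted p was 0.114 without 6-gingerol replicate 1 and 0.147 without 6-shogaol replicate 2. Slc7a2 was higher with 6-shogaol, at 76.5 ± 1.17 CPM, against 58.5 ± 1.79 CPM (log2 fold change 0.39, edgeR adjusted p = 0.0114). Leaving out either 6-gingerol library or 6-shogaol replicate 2 gave it an adjusted p of 0.0528, 0.0825 or 0.0653. The differences of Slc7a1 (-0.09, 95% interval -0.35 to 0.16), Ass1 (-0.11, -0.35 to 0.13) and Asl (-0.23, -0.48 to 0.03) were not called.

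At 10 µM, 0 of the 7 genes were called between 6-shogaol and 6-gingerol, where 0.638% of all genes were. Acod1 came nearest, with 857.3 and 953.4 CPM with 6-shogaol, against 1389 and 1194 CPM with 6-gingerol (log2 fold change -0.51, 95% interval -0.76 to -0.26, edgeR adjusted p = 0.0669). DESeq2 called it (adjusted p = 0.000499), and limma-trend on the authors' table called 0 of the 8 genes. Nos2 and Gch1 also had unadjusted p under 0.05, at log2 fold changes of -0.47 (95% interval -0.88 to -0.05) and -0.28 (-0.52 to -0.04). Scaling by library totals moved the median of all genes by 0.111 on the log2 scale in this comparison, and 0 of the 7 genes were called under it as well.

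Over the 6 groups Nos2 was ordered as 30 µM 6-shogaol (37.2 CPM), untreated (43.9), 10 µM 6-shogaol (131.4), 30 µM 6-gingerol (175.6), 10 µM 6-gingerol (181.9) and LPS alone (191.7). The lowest pair overlapped, and the upper 3 groups were not told apart (edgeR adjusted p = 1 for each against LPS alone). For Acod1 untreated cells were lowest (92.7 CPM), followed by 30 µM 6-shogaol (582.1), 10 µM 6-shogaol (905.3), 30 µM 6-gingerol (1064), LPS alone (1178) and 10 µM 6-gingerol (1291), with LPS alone and 10 µM 6-gingerol overlapping. Slc7a2 was highest with 30 µM 6-shogaol, at 76.5 CPM, and lowest in untreated cells, at 40.6 CPM, and the 4 groups between them, at 55.5 to 59.4 CPM, were not told apart in the 5 pairs of them that were tested, which leave out 10 µM 6-shogaol against 30 µM 6-gingerol.

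Other genes of the same pathways were read from lists that hold 80 genes of the deposited tables besides the 8, of which 58 passed the count filter. With LPS against untreated, 3 of the 58 were higher and 3 lower. These were 10.3% of the 58, near the 11.8% of all genes called, and the median log2 fold change was -0.09 beside -0.03 for all genes tested. Nos1, the neuronal nitric oxide synthase, had 6.39 ± 0.652 CPM with LPS, against 3.33 ± 0.494 CPM without (log2 fold change 0.94, edgeR adjusted p = 0.0084). That is a low level beside Nos2. Azin2, a regulator of polyamine synthesis (log2 fold change 1.10), and Slc3a2, the heavy chain that pairs with several amino acid transporters (0.29), were the other rises. The falls were those of Odc1, ornithine decarboxylase and the entry to polyamine synthesis (log2 fold change -0.70, adjusted p = 0.000385), of Srm, spermidine synthase (-0.68, adjusted p = 0.000727), and of Slc7a5, a light chain partner of Slc3a2 (-0.51, adjusted p = 0.0203). EdgeR called 0 of the 15 tested genes of citrate supply and itaconate handling with LPS (1 at an unadjusted p under 0.05, 1 called by DESeq2 and 0 by limma-trend). Of the 7 tested genes of tetrahydrobiopterin synthesis and recycling it called 0 (1 at an unadjusted p under 0.05, and 0 called by DESeq2 or limma-trend).

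With 30 µM 6-shogaol plus LPS against LPS alone, 11 of the 58 were higher and 4 lower, 25.9% of them and close to the 25.4% of all genes called, with a median of 0.14. Gatm, which uses arginine to start creatine synthesis, rose to 113.2 ± 14.3 CPM, against 70.4 ± 2.45 CPM with LPS alone (SD, n = 2 each, log2 fold change 0.68, edgeR adjusted p = 0.000342). Srm (0.68) and Idh3a, a subunit of mitochondrial isocitrate dehydrogenase (0.67), rose too. Srm thereby had 81.2 ± 7.88 CPM with 30 µM 6-shogaol plus LPS, 50.5 ± 2.76 CPM with LPS alone and 81.2 ± 4.86 CPM in untreated cells.

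Among the 4 that fell, Rab32, a small GTPase that takes part in delivering itaconate to vacuoles that hold bacteria, had 65.5 ± 2.50 CPM with 30 µM 6-shogaol plus LPS, against 122.6 ± 5.21 CPM with LPS alone (log2 fold change -0.91, edgeR adjusted p = 1.74e-05). Nos1 had 3.35 ± 0.439 CPM, against 6.39 ± 0.652 CPM (-0.94, adjusted p = 0.00578). Smox, spermine oxidase, had a log2 fold change of -0.60. Ddah2, which breaks down methylated arginines that inhibit nitric oxide synthase, had one of -1.94 at levels below 1 CPM. Against 30 µM 6-gingerol plus LPS, 12 of the 58 were higher with 30 µM 6-shogaol and 3 lower, 25.9% of them and close to the 25.0% of all genes called. The rises included Odc1 (0.72), Idh3a (0.70) and Gatm (0.64). With 6-gingerol against LPS alone 0 of the 58 were called at 10 µM and 0 at 30 µM by edgeR, DESeq2 and limma-trend, and 1 at each dose had an unadjusted p under 0.05. With 10 µM 6-shogaol against LPS alone, where 0.638% of all genes were called, 0 of the 58 were called by edgeR, DESeq2 and limma-trend, and 8 had an unadjusted p under 0.05 in edgeR. EdgeR called 2 of 74 without the count filter and 5 of 57 with the compared groups alone, where it called 311 and 970 of all genes.

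**Figure D4:**
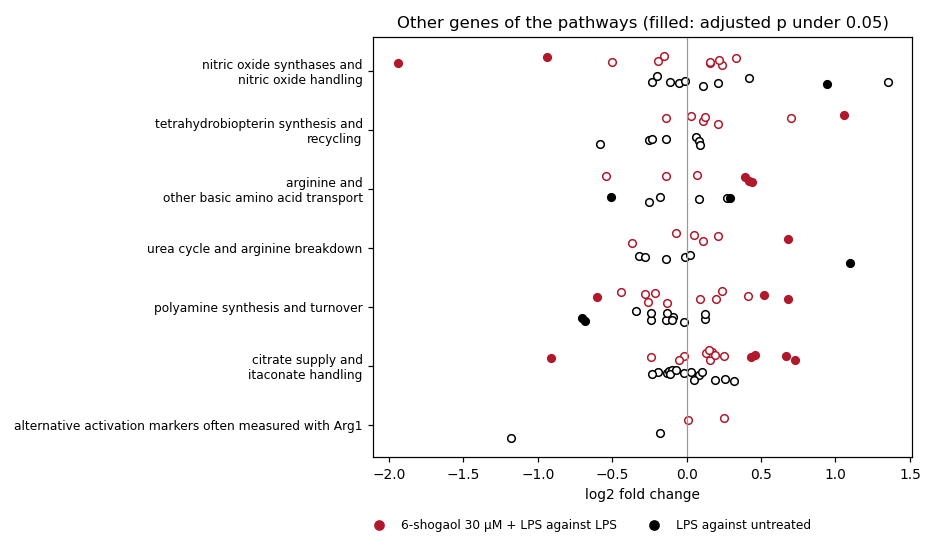
Log2 fold changes of the 58 pathway genes tested, by list, for 30 µM 6-shogaol plus LPS against LPS (red) and LPS against untreated (black), with called genes filled. In the polyamine list Odc1 and Srm are the filled black points near -0.7, and Srm is a filled red point at 0.68.

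Arg2, the mitochondrial arginase, stayed at or below 0.424 CPM in every library and did not pass the filter. With Arg1 at the detection limit, no arginase transcript was abundant in any group.

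The genes most like each member over the 12 libraries were taken among 9895 genes with a mean of at least 5 CPM, by the Pearson correlation of log2 CPM. The libraries share depth scaling and fall into treatment groups, so these values are descriptions with n = 12. Genes most like Nos2 included Src (r = 0.993) and Tnfrsf1b (0.99), both of which had lower means with 30 µM 6-shogaol plus LPS than in untreated cells, as Nos2 did. Acod1 was most like Fam49a (0.994), Rsad2 (0.993) and Sod2 (0.992). Gch1 was most like Procr (0.986), Isg15 (0.985) and Ccrl2 (0.984).

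Slc7a2 was most like Me1 (r = 0.989), Txnrd1 (0.984) and Cat (0.973), which had their highest group means with 30 µM 6-shogaol plus LPS. Me1 had 85.8 CPM there, against 38.2 CPM with LPS alone and 18.0 CPM in untreated cells. For Slc7a1 the leading genes were Pptc7 (0.959), Ppm1h (0.944) and Eef2k (0.941), for Ass1 Tagln2 (0.955), Cyfip1 (0.954) and Glmp (0.943), and for Asl Lap3 (0.952), Eef2kmt (0.949) and Mrpl37 (0.942). Between members, Acod1 and Gch1 had r = 0.94, Ass1 and Gch1 0.898, Nos2 and Gch1 0.859, Nos2 and Acod1 0.745, and Nos2 and Slc7a2 -0.003 over the same 12 libraries.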

How the data were processed

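Per the file headers, the deposited library tables are RSEM gene tables with an expected count (estimated reads per gene), a TPM value, a gene length and an effective length in bases. Per the submitters' processing notes, the reads were handled with DESeq2 1.44.0, RSEM 1.3.3, FastQC 0.12.1, Trimmomatic 0.39, R 4.4.2 and STAR 2.7.11b on GRCm38, with no role or order given, and the annotation release is not given in the sources used here. Between 6.58% and 7.52% of expected counts per library were not whole. RSEM splits reads that match several loci by estimation, which can move counts between related sequences. The authors also deposited a normalized signal per gene, whose scaling is not stated.

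Expected counts were rounded, filtered with filterByExpr (12705 genes kept), scaled by TMM and fitted in edgeR 4.0.16 (R 4.3.3) with 6 group means over 12 libraries (6 residual degrees of freedom, quasi-likelihood, robust, 2-sided). CPM values use TMM library sizes, means are given with SD over 2 libraries, and intervals are 95%. The typical precision was 0.29 on the log2 scale (median half-width of the intervals). TPM and lengths served only for ratios, levels between genes and fragment lengths. Symbols and positions came from the GENCODE annotation of GRCm38, and 97.8% of identifiers had a symbol.

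The 8 genes, the pathway lists and the tests were chosen with earlier results of these data known. Beside the 8 genes, the text names the 4 called pathway genes with the smallest adjusted p per direction in a comparison and the 3 genes most correlated with each member (log2 CPM, prior count 2), and 2 of the genes so chosen are not reported here. Alternatives were RLE size factors, library totals, no count filter, the compared groups alone, the replicate number as a block, fragment length as a covariate, DESeq2 1.42.0, limma-trend (limma 3.58.1) on log2(value + 1) of the authors' signal, and leaving out each library. Taken across the genes tested, same-numbered replicates showed little pairing: over 15 pairs of groups their deviations correlated at -0.312 to 0.178. Asl, however, was higher in replicate 1 than in replicate 2 of every group, while the other members tested varied by group. No pair of replicates was a duplicate (chi-square per degree of freedom 6.59 to 38.53). The test was checked on simulated data. Protein sequences were not used here.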

Additional observations from a re-analysis of the deposited data

How the results depend on the processing

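Of 924 alternative values for the 7 genes tested, 884 kept their side of the threshold, 24 lost a call, 16 gained one and 0 called changes turned round. Of the 884, 45 were uncalled values that took the other sign, such as Nos2 with 30 µM 6-shogaol against untreated, at -0.24 and up to 0.10 among the alternatives. Calls of Acod1 and Nos2 with 30 µM 6-shogaol against LPS, and those of Acod1, Nos2 and Gch1 with LPS, held under every alternative run. The count with LPS against untreated was 5, but 3 with limma-trend on the authors' table, and 3 to 5 when libraries were left out. With 10 µM 6-shogaol against LPS it was 0, but 1 without the count filter, 4 with the compared groups alone and 1 with DESeq2. Between the compounds at 10 µM it was 0, but 2 without the filter and 1 with DESeq2. Between them at 30 µM it was 4, and 2 to 4 when libraries were left out. With 30 µM 6-shogaol against untreated it was 3, but 5 without the filter, where Arg1 and Asl were added. Limma-trend on the authors' table also called Arg1 lower there, and with 10 µM 6-shogaol against untreated. When only the compared groups were fitted, Nos2 between the 6-shogaol doses had an adjusted p of 0.072, while Slc7a1 was called with 10 µM 6-shogaol against LPS (log2 fold change 0.24, adjusted p = 0.043) and between the doses (-0.28, adjusted p = 0.0226). Slc7a1 was also called with 10 µM 6-shogaol against untreated without untreated replicate 2 (0.43, adjusted p = 0.0174). With the replicate number as a block, Asl with 30 µM 6-shogaol against untreated was called (log2 fold change -0.33, adjusted p = 0.0229), the only call among the 7 genes that the block changed. It was called with library totals (adjusted p = 0.0367) and fragment length (0.0382) too.

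Counts over all genes moved by more than 1.5 times as follows. With LPS 1501 genes were called, and 855 or 768 without LPS replicate 1 or 2. With 10 µM 6-shogaol against LPS 81 were called, and 311 without the filter, 970 with the compared groups alone, 48 with fragment length as a covariate, 37 with limma-trend and 18 to 44 without 1 library. Between the compounds at 10 µM 81 were called, and 419, 152, 173 and 42 without the filter, with the compared groups alone, with DESeq2 and with limma-trend, and 16 to 49 without 1 library. With 6-gingerol against LPS 0 were called, and 28 at 10 µM and 27 at 30 µM without the filter, and at 30 µM 5 with the compared groups alone, 2 with DESeq2 and 1 without LPS replicate 1. Between the 6-gingerol doses 1 was called, and 49 without the filter, 7 with the compared groups alone, and 0 with library totals, with limma-trend and without 10 µM replicate 1 or 30 µM replicate 2. Leaving out a library lowered 3222 to 1827 for 30 µM 6-shogaol against LPS, 3171 to 1807 against 6-gingerol, 2463 to 960 against 10 µM, and 3229 to 1980 against untreated, where 2092 were called with the compared groups alone. With 10 µM 6-shogaol against untreated 1113 were called, with 499 to 2179 when a library was left out, 632 with the compared groups alone and 738 with limma-trend. Of the 58 pathway genes, 6 were called with LPS and 3 with limma-trend, and 15 between the compounds at 30 µM and 8 with limma-trend. With 10 µM 6-shogaol against LPS 0 of them were called, and 2 without the filter and 5 with the compared groups alone. The cause of these shifts was not tested. With 2 libraries a group, changes under about 0.29 on the log2 scale were mostly beyond the precision.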

Other observations

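Of 8 markers often measured with Arg1 as signs of alternative activation, 2 passed the count filter. Il4ra, a chain of the interleukin 4 receptor, was present at 25.2 and 21.2 CPM with 30 µM 6-shogaol plus LPS, 22.4 and 23.4 CPM with LPS alone, and 23.7 and 28.3 CPM in untreated cells. Its 30 µM 6-shogaol libraries overlapped both other groups, and both LPS libraries lay below both untreated libraries without a call (edgeR adjusted p = 0.468). Clec10a, the other that passed, had 0.303 and 0.333 CPM with LPS alone, against 0.719 and 0.744 CPM in untreated cells. With 30 µM 6-shogaol plus LPS it had 0.305 and 0.451 CPM, and it was called in no comparison. Mrc1, the mannose receptor, was at or below 0.513 CPM in every library. Mrc1, Pdcd1lg2 and Ccl24, which did not pass, also lay lower in both LPS libraries than in both untreated libraries, at few counts. Chil3, Retnla and Ccl17 had 0 counts in all 12.

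The average transcript length that RSEM assigned to Asl varied between libraries, at 1328.9 and 1616.2 bases with LPS, against 1512.2 and 1389.6 bases in untreated cells, and the length of Slc7a2 ran between 5749.6 and 6744.8 bases over the 12 libraries. The lengths of Nos2, Acod1 and Arg1 were constant. TPM ratios that involve Asl or Slc7a2 carry this variation, and CPM does not use the length.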
